A study of Mus musculus with 6 samples.

Results

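The 10 genes Ccl2, Ccl3, Ccl4, Ccl5, Ccl6, Ccl7, Ccl9, Ccl24, Cxcl2 and Cxcl16 encode chemokines that macrophages can secrete. They were taken as a named list of symbols, mapped to Ensembl identifiers, and make up 10 of the 46603 genes counted and 10 of the 12767 genes tested. RNA sequencing measured them in mouse bone marrow-derived macrophages given medium conditioned by cancer cells. The medium kept its lipids for 3 libraries (with lipids) and lacked them for 3 libraries (without lipids, or lipid-free). All 6 libraries came from C57BL/6/J mice aged 7 weeks. Marrow cells of both groups were grown with 20% L929-conditioned medium, a source of macrophage growth factor, detached on day 6, plated with 800000 cells in each well, and given the conditioned medium 6 h later. These are macrophages differentiated in a dish and not cells taken from a tumour. No group received medium free of cancer cell products, so each value sets the 2 conditioned media against each other. The cancer cell line, how lipids were removed and how long the exposure lasted were not given in the sources used here.

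Chemokines are small secreted proteins that attract leukocytes along a gradient by binding G protein-coupled receptors. CC chemokines carry their first conserved cysteines side by side and mainly attract monocytes, macrophages, T cells and eosinophils, while CXC chemokines carry a residue between them, and several of these attract neutrophils. Macrophages transcribe many of them at low levels at rest and raise some sharply through NF-kB and related factors, and the messages of several inflammatory chemokines are short-lived because AU-rich elements in their 3′ untranslated regions recruit decay proteins.

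With lipids in the medium, the macrophages held less Ccl3, Ccl4 and Cxcl2 transcript and slightly more Ccl6 transcript than without lipids. Cxcl2 averaged 9.35 ± 0.51 CPM with lipids and 16.5 ± 2.2 CPM without lipids (SD, n = 3 each), where CPM is the read count scaled to library size. The other 6 members, Ccl2, Ccl5, Ccl7, Ccl9, Ccl24 and Cxcl16, did not pass the test. In all, 1 of the 10 members was higher and 3 were lower with lipids in edgeR's quasi-likelihood test (threshold 0.05 on the adjusted p), beside 4.58% of all tested genes higher, 6.87% lower and 11.5% in either direction. The median log2 fold change of the 10 members, with lipids minus without lipids, was -0.19, beside -0.0032 over all tested genes. Whether replicates are separate mice or cultures is not in the labels, so the spread that p-values rest on, between these libraries, may be technical. In bulk RNA a lower value can come from fewer cells that express a gene or from less transcript per cell, and these cannot be told apart.

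Libraries held 20778651 to 25323053 counts with lipids and 19429022 to 22330119 counts without lipids. A count of 0 allows up to 3 counts, or 0.118 to 0.154 CPM, for counting error only. The macrophage markers Adgre1, Csf1r, Cd68, Itgam, Mertk, Fcgr1, Lyz2 and Cd14 were detected in every library and summed to 29207 to 29564 CPM with lipids and 29525 to 34406 CPM without lipids. Of these 8, Itgam (log2 difference 0.56) and Fcgr1 (0.29) were higher with lipids and Cd68 (-0.55) was lower. Neutrophil markers summed to under 1 CPM in every library, with Ly6g at 0, and epithelial markers also to under 1 CPM, with Krt8 and Krt18 at 0. The 5 fibroblast markers summed to 113.7 to 121.7 CPM with lipids and 118.5 to 162.5 CPM without lipids. All 5 had negative log2 differences, with a median of -0.30. Of them only the collagen gene Col3a1 passed the test, lower with lipids (log2 difference -0.50, edgeR adjusted p = 0.014). Endothelial markers summed to 31.5 to 34.7 CPM with lipids and 35.5 to 51.8 CPM without lipids, nearly all of it Kdr, which was lower with lipids (-0.45), while Cdh5 (1.03) was higher. The B cell gene Ighm averaged 28.7 CPM with lipids and 22.5 CPM without lipids. Libraries without lipids were more spread out: their expression profiles correlated at 0.994 to 0.997, against 0.998 with lipids. On the second principal component lipid-free replicate 1 had a score of -17.7 and the other 5 libraries had scores between -0.62 and 10.5.

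Sequences are given for the members whose transcripts passed the test and that the sequence tables hold, so that the control regions of Cxcl2, Ccl3 and Ccl6 can be set beside their values. The promoter runs are 250 bases before to 50 bases after the RefSeq gene start on GRCm38.p6, 5′ to 3′ on the gene's own strand. They lie at chr5:90903649-90903948 on the plus strand (Cxcl2), chr11:83649329-83649628 on the minus strand (Ccl3) and chr11:83593038-83593337 on the minus strand (Ccl6). Capitals mark matches to the NF-kB consensus on either strand.
Cxcl2 promoter: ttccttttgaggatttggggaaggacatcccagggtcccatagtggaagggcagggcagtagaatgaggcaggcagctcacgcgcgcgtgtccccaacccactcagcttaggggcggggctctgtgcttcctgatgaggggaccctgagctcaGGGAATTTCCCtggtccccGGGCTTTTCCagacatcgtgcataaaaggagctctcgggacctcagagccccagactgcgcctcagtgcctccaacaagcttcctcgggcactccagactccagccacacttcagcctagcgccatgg
Ccl3 promoter: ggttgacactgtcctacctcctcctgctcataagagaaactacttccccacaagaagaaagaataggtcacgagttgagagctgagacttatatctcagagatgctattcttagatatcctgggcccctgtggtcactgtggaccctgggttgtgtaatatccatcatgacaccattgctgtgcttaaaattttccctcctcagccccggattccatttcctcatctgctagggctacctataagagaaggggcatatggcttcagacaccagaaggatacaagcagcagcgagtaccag
Ccl6 promoter: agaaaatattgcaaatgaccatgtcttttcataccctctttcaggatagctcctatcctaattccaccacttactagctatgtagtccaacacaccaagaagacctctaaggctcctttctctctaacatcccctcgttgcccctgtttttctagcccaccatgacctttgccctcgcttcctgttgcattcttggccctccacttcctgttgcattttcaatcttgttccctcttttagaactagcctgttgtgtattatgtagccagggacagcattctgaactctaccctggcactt

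The Cxcl2 promoter held 3 NF-kB matches, GGGAATTTCC starting 97 bases before the gene start, its overlapping reverse-strand match GGAATTTCCC 1 base further on, and GGGCTTTTCC starting 78 bases before the start. Of 32851 mouse promoters of this length, 5.56% held at least 1 such match. The Ccl3 and Ccl6 promoters held no match in this window, and none to the AP-1 letters TGANTCA, the STAT letters TTCNNNGAA, the C/EBP letters TTNNGCAA (each on both strands) or TATAAA on the gene's strand. Those letters occur in 7.81% (AP-1), 8.30% (STAT), 10.8% (C/EBP) and 8.32% (TATAAA) of promoters. The Ccl9 promoter, at chr11:83578587-83578886 on the minus strand, held 1 NF-kB match, 1 AP-1 match and TATAAA. A match is a run of letters, not a measured binding site.

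The 3 lower members shared a sequence feature, which was noticed after their values were seen. The AU-rich core TATTTAT occurred in the 3′ untranslated region of the principal transcript of Ccl3, Ccl4 and Cxcl2 and of none of the other 7 members. It occurred in 28.7% of the 11561 tested genes with an annotated 3′ untranslated region. One site of each gene is shown, from GRCm38 with GENCODE M21 transcripts, at chr5:90905316-90905344 on the plus strand (Cxcl2), chr11:83648003-83648031 on the minus strand (Ccl3) and chr11:83664542-83664570 on the plus strand (Ccl4), with the core in capitals.
Cxcl2 site: gagagttcactTATTTATttatctatgta
Ccl3 site: gtatttgtgacTATTTATtctgaaagact
Ccl4 site: attatttctatTATTTATgttttagttat

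Cxcl2 held 7 such cores and 11 ATTTA pentamers in 734 bases, and only 0.138% of tested genes held 7 or more cores. Ccl3 held 1 core and 5 pentamers in 409 bases, and Ccl4 held 1 core and 2 pentamers in 302 bases. Per kilobase of untranslated region this was 14.99 pentamers in Cxcl2, 12.2 in Ccl3 and 6.62 in Ccl4, beside a median of 1.30 over tested genes. Pentamers without the longer core occurred in 5 other members, all at a density above that median: 4.60 per kilobase in Ccl7, 4.24 in Ccl6, 3.64 in Ccl2, 2.03 in Ccl9 and 1.41 in Cxcl16. The shared core was noticed after the values were seen and is a description of 10 genes.

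**Figure D1:**
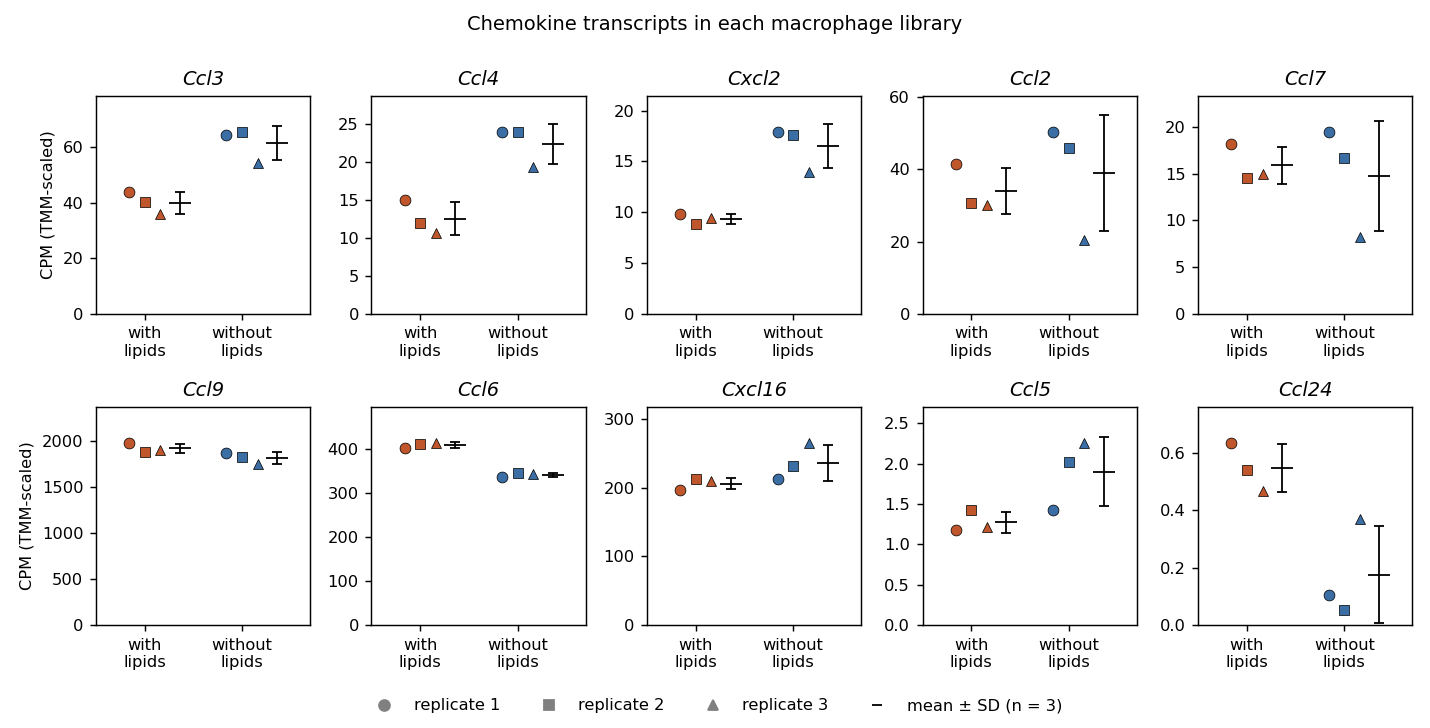
Each panel shows 1 chemokine gene, with TMM-scaled CPM on the y axis, 3 libraries with lipids on the left and 3 without lipids on the right, and the mean ± SD (n = 3) as a bar. The points of Ccl3, Ccl4 and Cxcl2 with lipids all lie below those without lipids, the points of Ccl6 all lie above, and Ccl2 and Ccl7 overlap, with lipid-free replicate 3 the lowest point of both.

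Ccl3 and Ccl4 attract monocytes, T cells and NK cells. The genes lie side by side on chromosome 11, Ccl3 at 83647844-83649355 on the minus strand and Ccl4 at 83662584-83664683 on the plus strand, 13228 bases apart. Ccl3 was at 43.9, 40.4 and 35.9 CPM with lipids and 64.7, 65.6 and 54.5 CPM without lipids. Every library with lipids lay below every library without lipids. The means were 40.1 ± 4.0 CPM with lipids and 61.6 ± 6.2 CPM without lipids, a log2 difference of -0.62 (SE 0.09, edgeR adjusted p = 0.0019), and the level fell by 34.9%. Ccl4 was at 14.98, 12.0 and 10.7 CPM with lipids and 23.9, 23.9 and 19.3 CPM without lipids. Its groups did not overlap either, with replicate 1 the highest of the libraries with lipids and replicate 3 the lowest of those without. Ccl4 averaged 12.5 ± 2.2 CPM with lipids and 22.4 ± 2.7 CPM without lipids, a log2 difference of -0.83 (SE 0.13, edgeR adjusted p = 0.00244).

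Cxcl2 attracts neutrophils through Cxcr2 and lies outside the CC cluster, on chromosome 5 at 90903871-90905938 on the plus strand. It was at 9.82, 8.81 and 9.41 CPM with lipids and 17.9, 17.6 and 14.0 CPM without lipids. The libraries with lipids lay close together and below all of those without lipids. The log2 difference was -0.82 (SE 0.12, edgeR adjusted p = 0.00121), and the level fell by 43.3%. The same gene carried the NF-kB letters and the AU-rich cores described above, whose part in this difference was not tested. Its relative Cxcl1, which binds the same receptor and is not one of the 10, was at 1.81, 2.58 and 2.34 CPM with lipids and 4.10, 5.25 and 3.998 CPM without lipids, again with no overlap. Its log2 difference was -0.98 (SE 0.18, edgeR adjusted p = 0.00532). Not all CXC ligands fell: Cxcl3 was at 0.27 (edgeR adjusted p = 0.600), Cxcl5 at -0.06 (edgeR adjusted p = 0.936) and Ppbp at 2.02 (edgeR adjusted p = 1.08e-05).

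Ccl6 and Ccl9 are rodent CC chemokines that macrophages and other myeloid cells make without stimulation, and both bind Ccr1. They are neighbours on chromosome 11, Ccl9 at 83572919-83578636 and Ccl6 at 83587882-83593087, both on the minus strand and 9245 bases apart. Ccl6 was at 401.1, 411.6 and 412.6 CPM with lipids and 336.4, 344.1 and 341.7 CPM without lipids. The groups were well apart and the replicates of each lay within 1.03-fold of each other. Ccl6 averaged 408 ± 6.4 CPM with lipids and 341 ± 3.9 CPM without lipids, a log2 difference of 0.26 (SE 0.05, edgeR adjusted p = 0.00763), or 19.9% more. The call was lost without replicate 2 with lipids (0.26, edgeR adjusted p = 0.0654) and without replicate 3 with lipids (0.25, edgeR adjusted p = 0.0620). Ccl9 was at 1977, 1883 and 1900 CPM with lipids and 1874, 1829 and 1748 CPM without lipids. The lowest library with lipids lay just above the highest without lipids, and the log2 difference of 0.08 (SE 0.06, edgeR adjusted p = 0.401) did not pass the test.

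Ccl2 and Ccl7 attract monocytes from the blood through Ccr2. They lie 8258 bases apart at the other end of the cluster, Ccl2 at 82035571-82037453 and Ccl7 at 82045712-82047525 of chromosome 11, both on the plus strand. Ccl2 was at 41.4, 30.6 and 30.1 CPM with lipids and 50.3, 45.9 and 20.5 CPM without lipids. The groups overlapped: lipid-free replicate 3 was the lowest of all 6 libraries while the other 2 without lipids were the highest. The log2 difference was -0.19 (SE 0.26, edgeR adjusted p = 0.691). Without that library it was -0.50 (SE 0.13, edgeR adjusted p = 0.0258), and with lipid-free replicate 1 left out it was 0.05 (edgeR adjusted p = 0.887). Ccl7 was at 18.1, 14.6 and 14.98 CPM with lipids and 19.5, 16.7 and 8.18 CPM without lipids. The groups overlapped, the same library was the low one, and the log2 difference was 0.11 (SE 0.24, edgeR adjusted p = 0.808). Without it the value was -0.18 (edgeR adjusted p = 0.388).

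The spread of this pair between replicates was wide. On the log2 scale the SD of Ccl2 was 0.26 with lipids and 0.70 without lipids, and that of Ccl7 was 0.17 with lipids and 0.64 without lipids, beside medians over all tested genes of 0.07 with lipids and 0.13 without lipids. The highest library without lipids held 2.45 times the Ccl2 of the lowest and 2.38 times the Ccl7. Fibroblasts also express Ccl2 and Ccl7, and the fibroblast markers were at the levels given above. Their part in these values was not tested.

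Ccl5 attracts T cells, monocytes and eosinophils. It was among the scarce members, at 1.18, 1.42 and 1.22 CPM with lipids and 1.42, 2.02 and 2.25 CPM without lipids, from 26, 37 and 26 counts with lipids, against 27, 38 and 49 without. Lipid-free replicate 1 reached down to the level with lipids and the other 2 lay above it. The log2 difference of -0.57 (SE 0.22, edgeR adjusted p = 0.119) did not pass the test, and with lipid-free replicate 1 left out it was -0.74 (edgeR adjusted p = 0.0220). In that fit 1975 of all tested genes were lower, against 877 with all libraries.

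Cxcl16 is unusual among chemokines in being made as a membrane protein, which also acts as a scavenger receptor for oxidised lipoprotein and is shed to attract cells that carry Cxcr6. The gene is on chromosome 11 at 70453983-70459984 on the minus strand, away from the CC cluster. It was at 196.9, 212.0 and 209.1 CPM with lipids and 212.7, 232.0 and 264.9 CPM without lipids. The groups did not overlap, but lipid-free replicate 1 nearly met the group with lipids, and the log2 difference of -0.20 (SE 0.08, edgeR adjusted p = 0.132) did not pass the test. With lipid-free replicate 1 left out it was -0.27 (edgeR adjusted p = 0.00635), in a fit where 1975 of all tested genes were lower, against 877. Cxcl16 shares 552 exon bases with Zmynd15 on the other strand. The strand setting of the counts was not given in the sources used here, and Zmynd15 held 2241 counts over the 6 libraries beside 28510 for Cxcl16.

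Ccl24, also called eotaxin-2, attracts eosinophils through Ccr3 and is a marker of alternatively activated macrophages. It was the scarcest member, with 14, 14 and 10 counts with lipids, against 2, 1 and 8 without. In CPM this was 0.633, 0.539 and 0.468 with lipids and 0.105, 0.0531 and 0.368 without lipids. The groups did not overlap, and lipid-free replicate 3 stood nearest to those with lipids. Ccl24 entered the test only through the libraries with lipids, where counts reached 10. The 38 counts with lipids and 11 without lipids gave a depth-adjusted ratio of 2.96, with an exact 95% interval of 1.48 to 6.43 that covers counting error only. The edgeR test gave an adjusted p of 0.0738, with a fitted log2 fold change of 1.54 (SE 0.50). Leaving out lipid-free replicate 3, the one nearest the other group, widens the difference, and gave 2.70 (edgeR adjusted p = 0.0110). In that fit 649 of all tested genes were higher, against 585 with all libraries. With any other library left out it was 1.14 to 1.63 (edgeR adjusted p 0.0927 to 0.243).

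**Figure D2:**
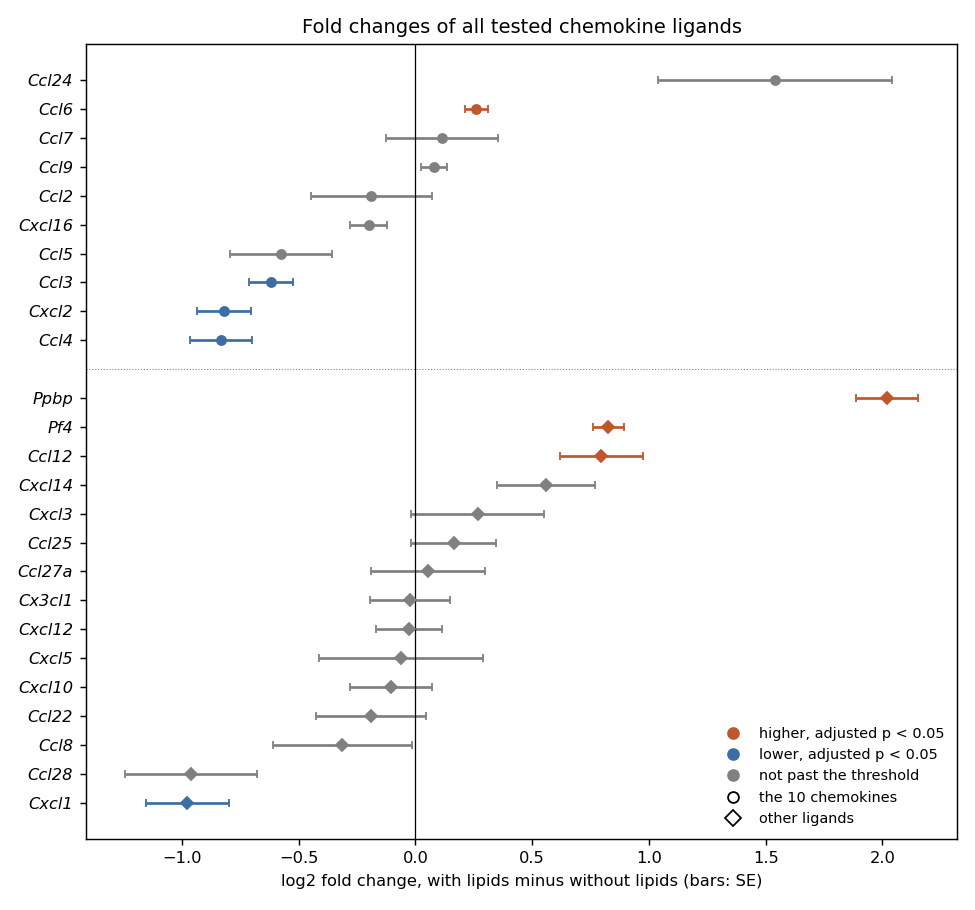
The log2 fold change, with lipids minus without lipids, is on the x axis with its SE as a bar, for the 10 chemokines (circles) and the other tested chemokine ligands (diamonds), and colour marks the direction of calls at an adjusted p of 0.05. Among the 10, Ccl3, Ccl4 and Cxcl2 are called lower and Ccl6 higher, and the wide bars belong to Ccl24, Ccl2, Ccl7 and Ccl5.

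Counting separation in place of the test, 7 of the 10 members had groups that did not overlap, 4 lower with lipids (Ccl3, Ccl4, Cxcl2 and Cxcl16) and 3 higher (Ccl6, Ccl9 and Ccl24). Over all tested genes 30.5% had groups that did not overlap, 15.8% lower and 14.7% higher with lipids. By sign alone, 6 members were negative and 4 positive. Ccl24, among the 3 higher and the 4 positive, passed the filter only through its libraries with lipids. Its direction in these counts is therefore tied in part to that filter.

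Among the 10 members, Ccl9 made up most of the reads. It supplied 73.1%, 72.0% and 72.4% of the members' summed CPM with lipids and 72.0%, 71.0% and 70.7% without lipids. The sum was 2705, 2615 and 2625 CPM with lipids and 2601, 2577 and 2474 CPM without lipids. Ccl9, Ccl6 and Cxcl16 together made up 95.2% to 96.1% of it with lipids and 93.2% to 95.2% without lipids. The 3 members that were lower with lipids are in the small remaining share. Levels between genes were compared as CPM per kilobase of the principal transcript. Ccl9 averaged 639 ± 17 with lipids and 604 ± 21 without lipids on that scale, 55.9% of the members' sum with lipids and 53.6% without lipids. Pf4, a chemokine outside the 10, averaged 703 with lipids and 397 without lipids on the same scale. Ccl6 averaged 284 ± 4.4 with lipids and 237 ± 2.7 without lipids. Cxcl16 came next, at 76.3 ± 3.0 with lipids and 87.6 ± 9.8 without lipids.

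The order of the remaining levels per kilobase with lipids was Ccl3 (52.3), Ccl2 (41.9), Ccl7 (19.9), Ccl4 (18.997), Cxcl2 (8.43), Ccl5 (2.39) and Ccl24 (0.422). Of these neighbours, the ranges of mean ± SD overlapped for Ccl3 and Ccl2 and for Ccl7 and Ccl4. Without lipids the order was Ccl3 (80.4), Ccl2 (47.9), Ccl4 (33.9), Ccl7 (18.5), Cxcl2 (14.9), Ccl5 (3.56) and Ccl24 (0.135). There they overlapped between Cxcl16 and Ccl3, between Ccl2 and Ccl4, and between Ccl7 and Cxcl2. Ccl4 and Ccl7 stood in opposite order in the 2 media.

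A ratio of 2 genes counted in the same library does not depend on how the libraries are scaled. The number of Ccl7 counts per Ccl2 count was 0.438, 0.477 and 0.498 with lipids and 0.387, 0.364 and 0.398 without lipids. It was higher in all 3 libraries with lipids, and lipid-free replicate 3, low in both genes, had a ratio like its group. Ccl4 per Ccl3 was 0.341, 0.296 and 0.298 with lipids and 0.370, 0.364 and 0.354 without lipids, lower in all 3 with lipids. Ccl6 per Ccl9 was 0.203, 0.219 and 0.217 with lipids and 0.180, 0.188 and 0.195 without lipids, higher in all 3 with lipids. An exact two-sided permutation test gave p = 0.1 for each of the 3 pairs, which is the smallest that 3 libraries against 3 allow and stays 0.1 after adjustment over them, so this test cannot reach 0.05 here. The genes of each pair are neighbours, and the pairs were picked with their values already known.

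**Figure D3:**
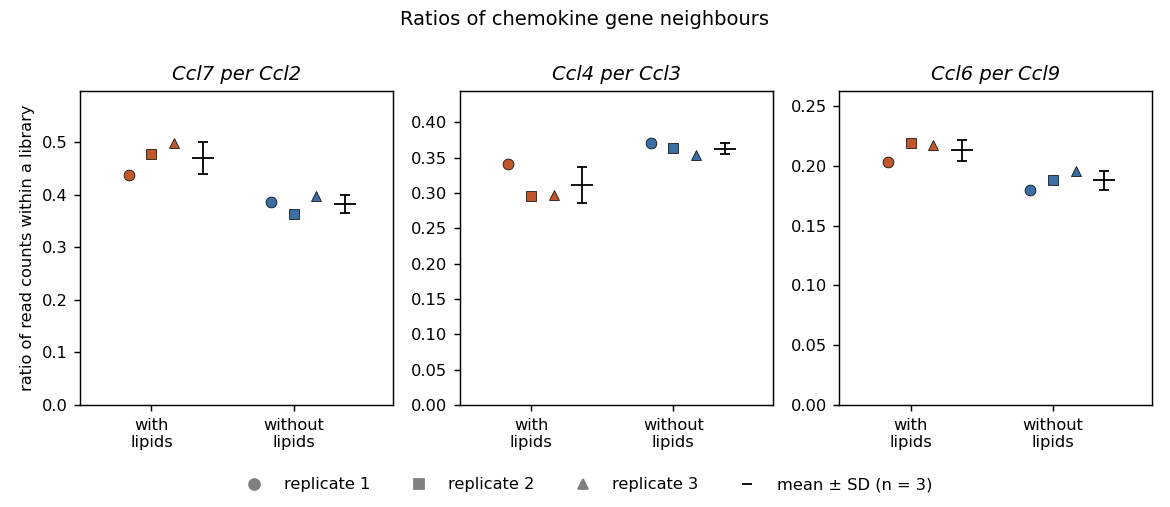
The y axis is the number of counts of 1 gene per count of its chromosomal neighbour in the same library, with 3 libraries with lipids on the left, 3 without lipids on the right and the mean ± SD (n = 3) as a bar. Ccl7 per Ccl2 averaged 0.471 with lipids and 0.383 without lipids, Ccl4 per Ccl3 averaged 0.312 with lipids and 0.363 without lipids, and no pair of groups overlaps.

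Profiles over the 6 libraries were compared by the root mean square difference in log2(CPM + 0.5), each gene centred on its own mean. The tested genes nearest to Ccl2 were Scin (0.11), Rgs16 (0.15) and Ccl7 (0.16), and those nearest to Ccl7 were Rgs16 (0.05), Map2 (0.11) and Ccnd1 (0.11), with Ccl2 at rank 11. Nearest to Ccl3 were Gpr176 (0.05), Xylt1 (0.06) and an identifier with no symbol, and nearest to Ccl4 were Plk2 (0.08), Cd200 (0.09) and Xylt1 (0.10). Ccl3 stood at rank 11 and Cxcl2 at rank 12 for Ccl4. For Ccl3, Cxcl2 stood at rank 56 and Ccl4 at rank 57, and for Cxcl2, Ccl3 stood at rank 39 and Ccl4 at rank 42. Nearest to Cxcl2 were Slc22a4, Fgfr1 and Cyfip2 (each 0.05). Kmt2e, Tut7 and Sp110 were nearest to Ccl6 (each 0.02), Arhgef11, Usp22 and Inpp5b to Ccl9, Emc9, Gstm5 and Slc15a4 to Cxcl16, Mfsd7a, Grap2 and Gm5617 to Ccl5, and A130014A01Rik, Ddah1 and Gm20342 to Ccl24. These likenesses cover 6 libraries in 2 groups, so genes with a like difference between the groups come out near each other.

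Of 28 other chemokine ligands, 15 were tested, and 3 were higher and 1 lower with lipids (all tested genes: 4.58% higher, 6.87% lower). Cxcl1 was the lower one. Ppbp and Pf4, CXC chemokines best known from platelets, were higher. Pf4 averaged 414 ± 8.7 CPM with lipids and 233 ± 19 CPM without lipids, a log2 difference of 0.83 (SE 0.07, edgeR adjusted p = 2.74e-05), and Ppbp averaged 11.4 ± 1.1 CPM with lipids and 2.81 ± 0.30 CPM without lipids. Of the other megakaryocyte markers, Gp1ba averaged 1.56 CPM with lipids and 1.16 CPM without lipids, with no overlap (log2 difference 0.43, edgeR adjusted p = 0.195), while Itga2b and Gp9 were too low to be tested and their groups overlapped. Gp9 averaged 0.0156 CPM with lipids and 0.0153 CPM without lipids. Their part in the Pf4 and Ppbp values was not tested. Ccl12, which lies beyond Ccl7 in the cluster and binds Ccr2, was at 2.99, 2.42 and 3.04 CPM with lipids and 1.79, 1.49 and 1.56 CPM without lipids (log2 fold change 0.80, SE 0.18, edgeR adjusted p = 0.015). That call was lost without replicate 1 or 3 with lipids or with lipid-free replicate 2 left out (edgeR adjusted p 0.0671 to 0.0720). The epithelial chemokine Ccl28 averaged 0.480 ± 0.14 CPM with lipids and 0.956 ± 0.05 CPM without lipids (edgeR adjusted p = 0.0508). Ccl8 (log2 fold change -0.31), Ccl25 (0.16) and Cxcl14 (0.56) did not pass the test either, with edgeR adjusted p values of 0.116 to 0.614.

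Of 23 chemokine receptors on the list, 8 were tested. With lipids 4 were higher and 3 lower (all tested genes: 4.58% higher, 6.87% lower), with a median log2 fold change of 0.50. Ccr3, the eotaxin receptor, was higher by 1.01 log2 (edgeR adjusted p = 2.44e-04), Ccr2 by 0.72 (edgeR adjusted p = 9.45e-04) and Ccr1 by 0.51 (edgeR adjusted p = 0.00427). Ccrl2, a non-signalling receptor, fell by 1.10 on the log2 scale (edgeR adjusted p = 0.00109), and Cxcr4 and Cxcr3 were also lower. Cxcr2 and Cxcr6, the receptors of Cxcl2 and Cxcl16, averaged under 0.1 CPM in both groups and were not tested.

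Among 8 tested proteases that shed or trim chemokines, 3 were lower with lipids and 0 higher (all tested genes: 6.87% lower, 4.58% higher). Their median log2 fold change was -0.27. Mmp12, a macrophage elastase, averaged 106 ± 15 CPM with lipids and 223 ± 12 CPM without lipids (log2 fold change -1.08, SE 0.09, edgeR adjusted p = 4.44e-05). Ctss, a lysosomal cathepsin, was at -0.53 (edgeR adjusted p = 8.07e-04) and the sheddase Adam17 at -0.27 (edgeR adjusted p = 0.00570). Adam10, which sheds Cxcl16, was at 0.25 (edgeR adjusted p = 0.0791), and Mmp14 at -0.42 (edgeR adjusted p = 0.0593). With lipid-free replicate 1 left out, 5 proteases were lower and 1 higher. Over all tested genes that fit gave 1975 lower and 1566 higher, against 877 and 585 with all libraries.

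Of 6 tested cytokines that induce chemokines, 1 was higher and 1 lower with lipids (median log2 fold change 0.15). Over all tested genes 4.58% were higher and 6.87% lower. Tnf was the lower one, at 21.9 ± 1.2 CPM with lipids and 40.8 ± 8.4 CPM without lipids (log2 fold change -0.90, SE 0.13, edgeR adjusted p = 0.00164). Csf1 was higher by 0.36 log2 (edgeR adjusted p = 0.0218), a call lost without any 1 of the 3 libraries with lipids. Il10 was at 0.38 (edgeR adjusted p = 0.0519) and Il1b at -0.22 (edgeR adjusted p = 0.523).

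Of 15 NF-kB subunits and feedback inhibitors tested, 5 were lower and 0 higher with lipids (all tested genes: 6.87% lower, 4.58% higher). The median log2 fold change of the 15 was -0.17. Tnfaip3, which encodes the inhibitor A20, averaged 24.5 ± 0.7 CPM with lipids and 47.3 ± 4.7 CPM without lipids (log2 fold change -0.95, SE 0.08, edgeR adjusted p = 6.28e-05). Tnip1 (-0.73, edgeR adjusted p = 3.98e-04), Nfkbia (-0.53, edgeR adjusted p = 0.00371) and Nfkbib (-0.49, edgeR adjusted p = 0.0473), which encode inhibitors of the same pathway, were also lower, as was the subunit Relb. The count was 3 without any 1 library with lipids or with lipid-free replicate 2 left out, and 8 with lipid-free replicate 1 left out. Over all tested genes the lower count was 423 to 488 in the fits with 3 and 1975 in the last, against 877.

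Of 21 other factors known at chemokine promoters, 3 were higher and 3 lower with lipids (median -0.07). Over all tested genes 4.58% were higher and 6.87% lower. Atf3, a stress-induced factor, averaged 130 ± 2.1 CPM with lipids and 216 ± 2.8 CPM without lipids (log2 fold change -0.73, SE 0.05, edgeR adjusted p = 1.65e-05). Egr2 was at -1.12 (edgeR adjusted p = 9.29e-04), Jun, a subunit of AP-1, at -0.49 (edgeR adjusted p = 0.00530) and Irf4 at 0.88 (edgeR adjusted p = 0.00620). Leaving out lipid-free replicate 1 gave 9 lower factors, and leaving out replicate 1 with lipids gave 1 higher factor. Over all tested genes the first fit gave 1975 lower, against 877, and the second gave 263 higher, against 585.

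Of 12 tested proteins that bind or cleave AU-rich and other unstable messages, 1 was higher and 1 lower with lipids (median 0.08). Over all tested genes 4.58% were higher and 6.87% lower, so 1 of 12 in each direction lies near those shares. Tial1 was higher by 0.28 log2 (edgeR adjusted p = 0.0240) and the ribonuclease gene Zc3h12a was at -0.43 (edgeR adjusted p = 0.0301). Zc3h12c (-0.40, edgeR adjusted p = 0.0798) and Tia1 (0.23, edgeR adjusted p = 0.112) did not pass, and the decay factor Zfp36, which binds TATTTAT, was at -0.02 (edgeR adjusted p = 0.946). Each of those 2 counts changed, between 0 and 3 higher and between 0 and 2 lower, over the fits that left out 1 library. Over all tested genes those fits gave 219 to 1566 higher and 423 to 1975 lower. A list of 10 genes held MAP kinase phosphatases and the kinases Mapk14, Mapkapk2 and Map3k8. Of these, 1 was higher and 2 lower with lipids (median -0.03), beside 4.58% and 6.87% of all tested genes. Dusp6 was higher by 0.91 log2 (edgeR adjusted p = 0.00311), Dusp2 was at -1.67 (edgeR adjusted p = 0.00170) and Dusp4 at -0.90 (edgeR adjusted p = 0.00619). The kinase gene Map3k8 was at -0.23 (edgeR adjusted p = 0.145). With lipid-free replicate 3 left out 2 were higher, in a fit where 649 of all tested genes were higher, against 585.

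**Figure D4:**
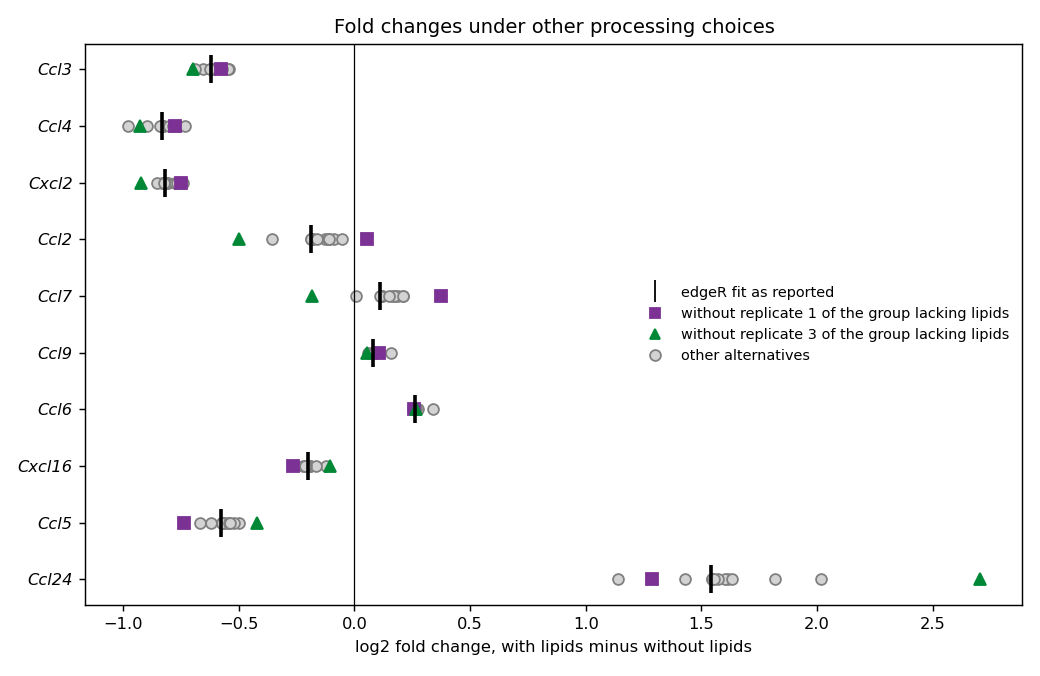
The x axis is the log2 fold change, with lipids minus without lipids, of each of the 10 chemokines. Bars show the reported edgeR fit and points show other processing choices. Symbols mark the fits that left out replicate 1 or replicate 3 of the group lacking lipids. The stricter threshold, which leaves fold changes as they are, is not drawn, and Ccl24 has no point for the filter of 1 CPM in 3 libraries. Ccl3, Ccl4 and Cxcl2 stay below 0 and Ccl6 above 0 under all choices drawn, while Ccl2 and Ccl7 cross 0 and Ccl24 covers 1.14 to 2.70.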

How the data were processed

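The authors deposited 1 table of unnormalised counts per gene and library, from libraries of a strand-marking poly(A) kit per the labels. The submitters' processing notes list GRCm38.p4, TopHat2 2.1.0, HTSeq and DESeq2, without roles. The strand setting and annotation release were not given in the sources used here. GENCODE M21 named 46091 of 46603 identifiers, and the 512 others held 0.129% to 0.142% of counts. From the counts, edgeR 4.0.16 in R 4.3.3 was run on all libraries, with filterByExpr (minimum count 10, minimum total 15), TMM scaling and a two-sided quasi-likelihood F test, adjusted by Benjamini-Hochberg over 12767 genes at 0.05. These steps were tested on simulated data, where they recovered 22% of 1.25-fold, 72% of 1.5-fold and 92% of 2-fold changes. Of 155 calls there, 12 were false. Alternatives were other scalings, filters and thresholds, DESeq2 1.42.0, limma 3.58.1 voom with and without sample quality weights, a replicate block, and each library left out. The members and lists were chosen with earlier results of these data known. Named genes were all members, up to 4 genes of smallest p in each pathway list, other ligands past the threshold and the 3 nearest profiles of each member. Others were named after their values were seen. Some genes that the rule selects are not reported here. RefSeq promoters matched for 4 of 10 members.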

Additional observations from a re-analysis of the deposited data

How the results depend on the processing

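Ccl3, Ccl4 and Cxcl2 were called lower with lipids under all 15 alternatives, with log2 fold changes of -0.70 to -0.54, -0.98 to -0.73 and -0.92 to -0.74 and edgeR, DESeq2 or voom adjusted p values of at most 0.0166, 0.0206 and 0.0107. Ccl6 was called higher in 13 of 15. The count of members called higher was 2 with no filter, with limma-voom and with sample quality weights, where Ccl24 joined Ccl6, and 0 to 2 when 1 library was left out. The count called lower was 5 with sample quality weights, where Ccl5 and Cxcl16 joined, and 3 to 5 when 1 library was left out. The members' median log2 fold change lay between -0.30 and -0.11 when 1 library was left out, lowest with lipid-free replicate 3 left out. When 1 library was left out, Ccl2 was at -0.50 to 0.05 (0.054 with lipid-free replicate 1 left out) and Ccl7 at -0.18 to 0.38. Ccl24 was not tested under the filter of 1 CPM in 3 libraries, and DESeq2 gave it no adjusted p (log2 fold change 1.60, SE 0.72).

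Over all tested genes, 585 were higher and 877 lower with lipids. Library totals alone gave 1241 higher and 596 lower, so that 67.6% of calls were higher in place of 40.0%, with the median of all genes shifted to 0.07 log2. No filter gave 1009 higher and 1243 lower, sample quality weights 1450 and 1919, and an adjusted p of 0.01 gave 216 and 444. Leaving out 1 library gave 219 to 1566 higher and 423 to 1975 lower, the most with lipid-free replicate 1 left out. The causes were not tested. Among the pathway lists, proteases ranged over the alternatives from 2 to 5 lower, NF-kB genes from 3 to 8 lower and promoter factors from 3 to 9 lower.

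Equal replicate numbers gave no clear pairing over all tested genes: deviations from group means correlated at -0.05, -0.17 and 0.22. Of 6 libraries, 2 correlated best with their own number. With 3 libraries in each group, this cannot show that the libraries were unpaired. With the replicate block, 715 genes were higher and 937 lower, and 1 member was higher and 3 lower. The block changed the SE of Ccl2 from 0.26 to 0.15 and that of Ccl7 from 0.24 to 0.16. For some other members the SE rose, as for Ccl6 from 0.051 to 0.065.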
